A study of Mus musculus with 27 samples.

Results

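The comparison described here is that of trimethylation of histone H3 at lysine 27 (H3K27me3) around the genes of pre-iPSCs and of mouse embryonic fibroblasts (MEFs). It rests on 4 of the 27 samples of the series, 2 H3K27me3 libraries of each cell type. The reads of all called nucleosomes whose centre (dyad) lay within 2500 bp of the transcription start site (TSS) were summed for each of 20156 RefSeq genes. Of these windows 19218 held enough reads to be tested, and 1088 of them gained and 997 lost the mark in pre-iPSCs.

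MEFs came from embryos of day 13.5 that carried an Oct4-GFP transgene and a Rosa26 allele (fathers of CBA/CaJ and C57BL/6J background, 129Sv/Jae mothers). Pre-iPSCs and iPSCs were induced from such MEFs with retroviruses for Oct4 (gene Pou5f1), Sox2, Klf4 and c-Myc (gene Myc), were grown with serum and LIF on inactivated MEF feeders. Pre-iPSCs are stable, partly reprogrammed clones that have not reached the pluripotent state. The study used a pair of such clones, and the sources used here do not say which library came from which clone, so the 2 pre-iPSC libraries may differ by clone as well as by preparation. Libraries titled as repeats are called replicate 2. Nothing in the labels says that the 2 MEF libraries came from different embryos, so the p-values measure the spread between these libraries. The amount of micrococcal nuclease and the length of the digest were not the same for MEFs as for the other cells, so digestion and cell type cannot be told apart here.

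H3K27me3 is laid down by Polycomb repressive complex 2, and genes that carry it around their start are as a rule silent or weakly transcribed. In embryonic cells it covers the CpG-rich promoters of developmental regulators, often together with H3K4me3, the mark of transcription starts. In differentiated cells it spreads over genes of other lineages, and when a cell changes its identity the mark has to leave some genes and settle on others.

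The sequences just upstream of 6 genes are shown because these genes stand for the groups that moved: Twist2, Tgfb1 and Col1a1 gained the mark, and Zic2, Itgb4 and Tdgf1 lost it. Each run gives the 250 bases before the TSS, 5′ to 3′ on the strand of the gene, read from the mm9 genome (NCBIM37), and the capitals mark CpG, the dinucleotide whose density goes with Polycomb binding in mammalian cells.
Twist2 (chr1:93697804-93698053, + strand): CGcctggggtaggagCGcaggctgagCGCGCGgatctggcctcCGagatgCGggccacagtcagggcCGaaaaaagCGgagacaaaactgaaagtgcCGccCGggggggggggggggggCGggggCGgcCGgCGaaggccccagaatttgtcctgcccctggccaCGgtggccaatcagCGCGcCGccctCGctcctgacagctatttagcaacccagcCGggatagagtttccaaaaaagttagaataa
Tgfb1 (chr7:26471771-26472020, + strand): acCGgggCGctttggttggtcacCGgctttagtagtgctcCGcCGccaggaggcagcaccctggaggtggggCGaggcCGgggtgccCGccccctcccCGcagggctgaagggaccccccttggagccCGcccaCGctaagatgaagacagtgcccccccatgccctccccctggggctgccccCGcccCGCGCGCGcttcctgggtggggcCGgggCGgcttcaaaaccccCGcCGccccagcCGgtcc
Col1a1 (chr11:94797334-94797583, + strand): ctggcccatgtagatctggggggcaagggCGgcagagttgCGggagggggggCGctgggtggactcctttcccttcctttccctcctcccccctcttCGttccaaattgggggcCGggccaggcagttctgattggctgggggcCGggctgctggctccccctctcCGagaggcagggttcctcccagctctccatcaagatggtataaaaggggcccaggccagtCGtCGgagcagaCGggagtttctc
Zic2 (chr14:122874356-122874605, + strand): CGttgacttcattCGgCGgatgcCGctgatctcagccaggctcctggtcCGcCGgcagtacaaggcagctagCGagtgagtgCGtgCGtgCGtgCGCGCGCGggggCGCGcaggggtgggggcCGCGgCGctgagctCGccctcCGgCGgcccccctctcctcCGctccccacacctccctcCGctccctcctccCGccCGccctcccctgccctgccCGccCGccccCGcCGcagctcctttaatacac
Itgb4 (chr11:115835789-115836038, + strand): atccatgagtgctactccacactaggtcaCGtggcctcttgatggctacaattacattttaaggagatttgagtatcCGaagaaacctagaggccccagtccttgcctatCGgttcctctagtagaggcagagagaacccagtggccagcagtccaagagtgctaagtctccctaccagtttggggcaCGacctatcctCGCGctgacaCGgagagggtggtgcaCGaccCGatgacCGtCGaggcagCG
Tdgf1 (chr9:110848663-110848912, − strand): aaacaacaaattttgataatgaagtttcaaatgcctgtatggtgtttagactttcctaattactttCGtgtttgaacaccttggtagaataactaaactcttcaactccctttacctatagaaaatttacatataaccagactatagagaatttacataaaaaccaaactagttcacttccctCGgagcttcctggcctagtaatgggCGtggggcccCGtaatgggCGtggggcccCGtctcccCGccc

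The number of CpGs differed among the 6. The stretch of Zic2 holds 30 CpGs, and 8.51% of the 20153 upstream stretches that could be read hold as many or more. Those of Twist2 and Tgfb1 hold 21 each, a number reached by 23.7% of all stretches. Itgb4 has 12 (48.2%), Col1a1 10 (53.6%) and Tdgf1 7 (62.1%). CpG reads the same on both strands, so each was counted once.

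The calls of the 4 libraries held between 13224775 and 15222040 reads, of which 533832 to 637292 fell into the windows, with a median of 20 to 25 reads a window. At this depth a window is counted with an error of about its square root, and small changes of single genes were not detectable. The libraries of a cell type resembled each other more than those of the other: over the tested windows Pearson's r of log2 reads was 0.869 between the MEF libraries, 0.855 between the pre-iPSC libraries and 0.686 to 0.763 across the cell types (values across windows of 2 libraries, which are not independent). The expression tables were set against lists of markers. The 10 fibroblast markers summed to 4858 and 4512 FPKM in MEFs and to 396 and 227 in pre-iPSCs, of which the part of feeder cells was not tested. Of 10 pluripotent cell markers none reached 1 FPKM in MEFs, 6 and 5 did so in the 2 pre-iPSC libraries and all 10 in both iPSC libraries, with Zfp42 at 0 and 0.0837 and Dppa3 at 0 in both pre-iPSC libraries. Pou5f1 is among these markers, with 378 and 3184 FPKM in pre-iPSCs. Its RNA cannot be told apart from that of the retroviral copies. The 8 epithelial markers summed to 5.27 and 5.84 FPKM in MEFs and to 103 and 44.0 in pre-iPSCs. Blood markers stayed between 7.46 and 29.7 FPKM, endothelial markers between 11.8 and 24.6 and neural markers between 9.49 and 75 in the 4 libraries.

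Windows that changed were about as often higher as lower. Of the 19218 windows tested, 5.66% gained the mark (1088) and 5.19% lost it (997), with edgeR's quasi-likelihood test at a Benjamini-Hochberg adjusted p below 0.05. The median gain was 2.45-fold and the median loss 2.04-fold, and the median log2 change over all windows was 0.00. In gained windows the median was 13.8 and 15.3 normalised reads in MEFs (counts brought to a common depth by TMM factors) against 36.4 and 39.4 in pre-iPSCs, and in lost windows 61 and 59.5 against 26.8 and 28.8. Over all tested windows it was 24.2, 24.0, 24.9 and 24.5. Both pre-iPSC libraries lay above both MEF libraries in all 1088 gained windows (27.8% of all tested windows showed that order) and below them in 996 of the 997 lost ones (28.3%). 

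These numbers depend on how the libraries are scaled and on the size of the design. Under TMM gains made up 52.2% of the calls, and with scaling to the reads in calls or to the library's unique reads 67.7% and 67.3%, which moved the median of all windows to 0.11 on the log2 scale. DESeq2 called 252 gains and 216 losses, all of them among those above. With 1 library left out there were 502 gains and 550 losses without MEF replicate 1, 703 and 661 without MEF replicate 2, 569 and 365 without pre-iPSC replicate 1, and 669 and 572 without pre-iPSC replicate 2.

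**Figure D1:**
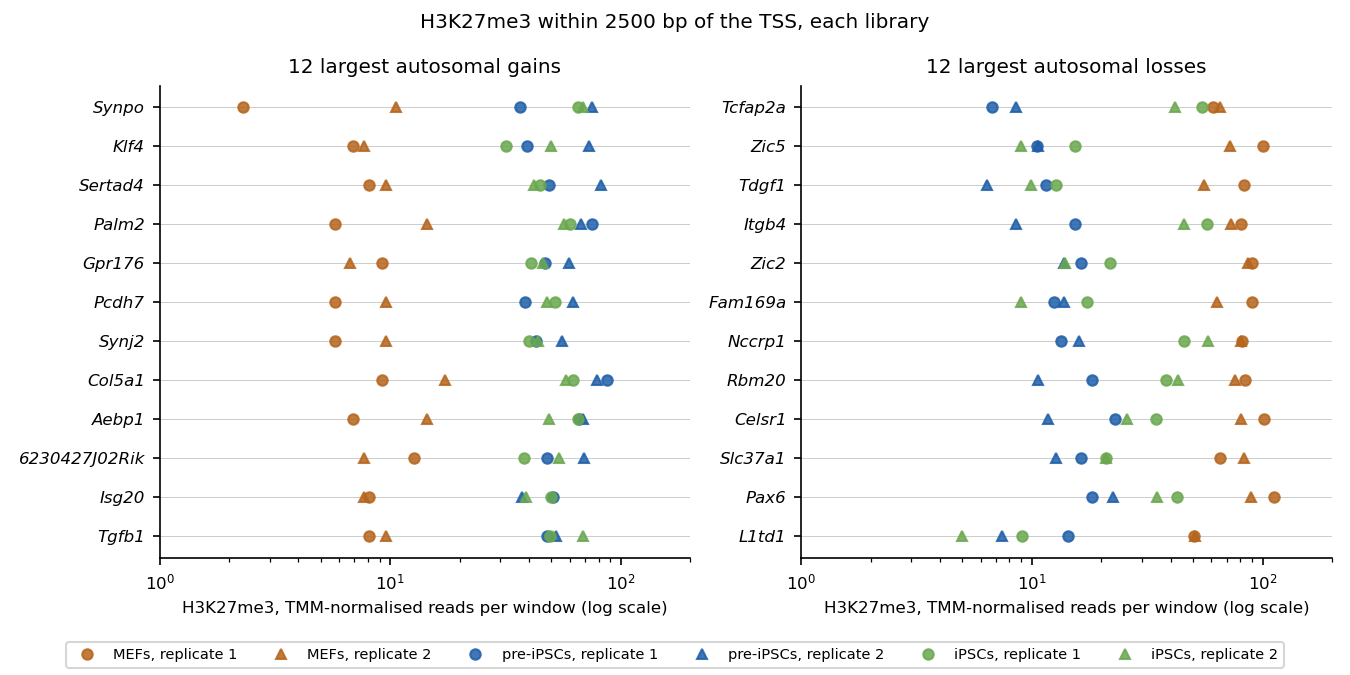
TMM-normalised H3K27me3 reads within 2500 bp of the TSS (x axis, log scale) for the 12 autosomal gains and 12 losses of largest change among genes with at least 40 reads in the higher cell type, 1 point for each library. MEF points lie apart from pre-iPSC points in all 24 genes, a separation that the rule for choosing them required. In the gains MEF points lie at 2.30 to 17.3 reads and iPSC points at 31.8 to 68.7, and in the losses iPSC points spread from 4.98 to 57.8.

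Gained and lost windows differed in what they gained or lost relative to their surroundings. Around autosomal starts that gained the mark, the mean level within 2500 bp was 0.203 and 0.245 RPKM in the MEF libraries (reads per kb scaled to library size by the reads in calls), which was 0.626 and 0.634 of the level 7.5 to 10 kb away. In pre-iPSCs it was 0.585 and 0.595 RPKM, or 1.06 and 1.13 of the distant level. The distant level of these genes rose too, from 0.324 and 0.386 RPKM in MEFs to 0.550 and 0.529 in pre-iPSCs, against 0.418 and 0.441 to 0.462 and 0.438 at starts not called. Around starts that lost the mark MEFs had a peak, 0.859 and 0.861 RPKM or 1.38 and 1.35 of the distant level, and pre-iPSCs had none, 0.448 and 0.460 RPKM or 0.946 and 0.974 of it. The windows were chosen by these same reads, so the profiles describe them and test nothing.

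**Figure D2:**
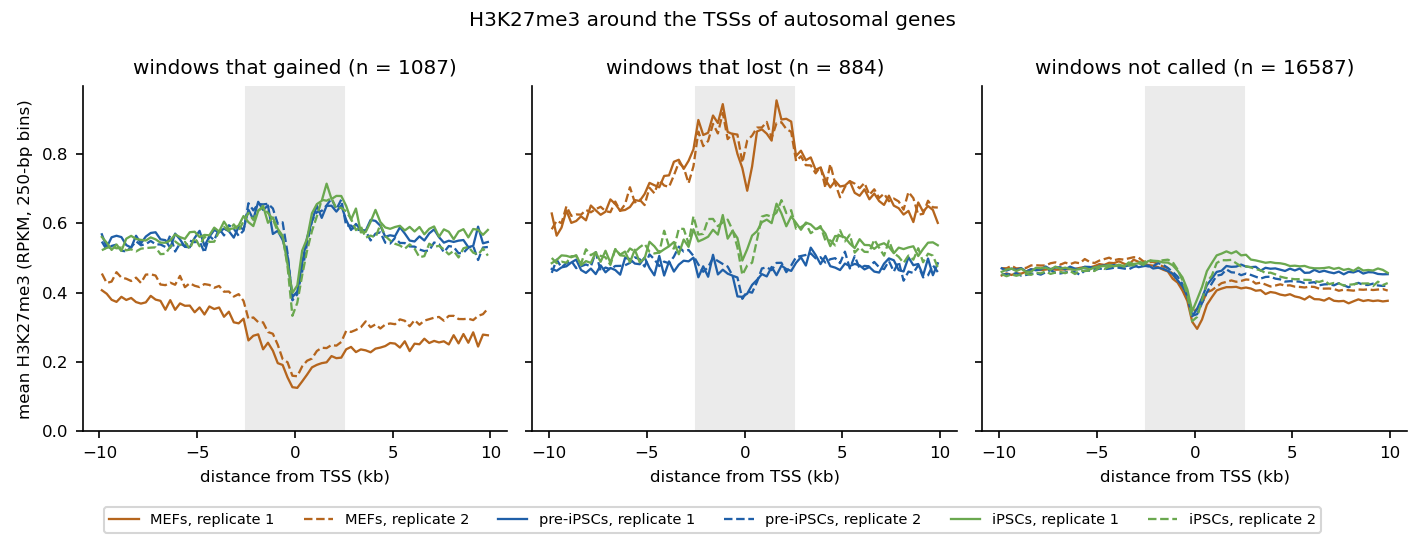
Mean H3K27me3 (RPKM, 250-bp bins, y axis) by distance from the TSS (kb, x axis) for 1087 autosomal windows that gained the mark, 884 that lost it and those not called, 1 line for each library, with the counted window in grey. MEFs have a trough where the mark was gained and a peak where it was lost, and the libraries lie close together at starts not called.

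Few gains carried a window across a threshold for being marked. With a window counted as marked above 1 RPKM in both libraries of a cell type and as unmarked at or below it in both, 328 windows went from marked in MEFs to unmarked in pre-iPSCs and 117 the other way, 224 were marked in both and 17977 in neither. Of the 997 losses 189 were among the first, and of the 1088 gains 38 were among the second. With 0.75 RPKM the 2 shifts took in 571 and 442 windows and with 1.5 RPKM 3 and 2.

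Genes of the fibroblast program gained the mark. Of 55 tested collagens and other matrix genes 28 gained H3K27me3 and 1 lost it, with a median log2 change of 0.96. Of 20 contractile genes of smooth muscle, which MEFs express, 11 gained it and 1 lost it (median 0.92), and of 43 surface and signalling genes of fibroblasts 20 gained it and 2 lost it (median 0.83). These stand against 5.66% of windows with a gain, 5.19% with a loss and a median of 0.00 over all windows. The 10135 genes whose expression was tested and not called (test given below) had 5.39% gains, 2.51% losses and a median of 0.19. The lists were drawn up with earlier results of these data known, so they group genes and are no independent evidence.

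Col5a1, which encodes a chain of the fibril-nucleating collagen V, had 9.21 and 17.3 normalised reads in MEFs and 87.1 and 78.8 in pre-iPSCs, a log2 change of 2.60 ± 0.30 (SE, adjusted p = 2.79e-08). Col1a1, the main chain of collagen I, went from 8.06 and 12.5 to 48.8 and 63.9 (2.41 ± 0.34, adjusted p = 1.12e-06). Tnc, the matrix protein tenascin C, went from 8.06 and 15.3 to 52.6 and 61.8 (2.24 ± 0.33, adjusted p = 3.25e-06). In each of the 3 genes both pre-iPSC values lay far above both MEF values, an order that all gained windows had. Thbs1, Timp2, Lox, Loxl1, Fbn1, Vcan, Col1a2, Col3a1 and the collagen VI genes Col6a1 and Col6a2 also gained the mark. Fn1, which encodes fibronectin, had 8.06 and 12.5 reads in MEFs and 14.4 and 17.0 in pre-iPSCs and did not pass the test (adjusted p = 0.445). Ltbp1, which holds latent TGF-β in the matrix, was the member that lost it, from 28.8 and 55.6 to 24.9 and 14.9 (adjusted p = 0.0211).

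Among the contractile genes Flnc, a filamin that crosslinks actin, rose from 10.4 and 15.3 normalised reads to 72.7 and 63.9 (2.38 ± 0.31, adjusted p = 2.90e-07), and the tropomyosin gene Tpm2 from 10.4 and 6.71 to 39.2 and 39.4 (2.21 ± 0.38, adjusted p = 4.13e-05). Myl9, a regulatory myosin light chain, rose from 21.9 and 18.2 to 62.2 and 57.5 (1.58 ± 0.29, adjusted p = 0.000111). Acta2, the smooth muscle actin by which activated fibroblasts are known, rose 2.19-fold, from 9.21 and 16.3 to 29.7 and 27.7 (adjusted p = 0.0310). The cell types did not overlap in any of the 4, as in all 1088 gained windows. The MEF libraries of Acta2 and Tpm2 differed from each other more than the pre-iPSC libraries. Des, the muscle intermediate filament desmin, lost the mark (adjusted p = 0.0424).

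On the cell surface the orphan receptor Gpr176 had 9.21 and 6.71 normalised reads in MEFs and 46.9 and 59.6 in pre-iPSCs (2.74 ± 0.36, adjusted p = 3.34e-07). Nrp1, a coreceptor for semaphorins and VEGF, had 11.5 and 8.63 against 51.7 and 44.7 (2.27 ± 0.35, adjusted p = 6.04e-06), and Cav1, the coat protein of caveolae, 9.21 and 8.63 against 43.1 and 44.7 (2.29 ± 0.36, adjusted p = 8.81e-06). The PDGF receptor genes Pdgfra and Pdgfrb, Thy1, Cdh11, Fap and Vcam1 gained it too. The change of Vcam1, which encodes an adhesion molecule, was 1.24 ± 0.36 (adjusted p = 0.0172). Ngfr, the low-affinity neurotrophin receptor, and Nt5e, which encodes CD73, went the other way: Ngfr had 95.5 and 107 reads in MEFs and 45.9 and 45.8 in pre-iPSCs (adjusted p = 0.000300).

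Of 65 tested transcription factors of mesenchyme 16 gained (24.6%) and 7 lost the mark (10.8%), against 5.66% and 5.19% of all windows. The median log2 change was −0.14. The losses were 3 by DESeq2, 4 when scaled to the reads in calls, 2 without MEF replicate 1 and 1 without pre-iPSC replicate 2. Twist2, a bHLH factor that holds cells in the mesenchymal state, had 10.4 and 23.0 normalised reads in MEFs and 80.4 and 88.4 in pre-iPSCs (2.29 ± 0.29, adjusted p = 1.32e-07). Snai2, a repressor of Cdh1, had 5.75 and 9.59 against 37.3 and 41.5 (2.31 ± 0.38, adjusted p = 1.92e-05), and Runx2, the factor of bone formation, 9.21 and 11.5 against 44.0 and 44.7 (2.07 ± 0.35, adjusted p = 2.62e-05). Prrx1, Prrx2, Twist1, Runx1, Osr1, Sox9 and Foxc2 were also among the gains. Of the losses, the homeobox gene Msx1 had 89.8 and 59.5 reads in MEFs and 32.5 and 27.7 in pre-iPSCs (−1.29 ± 0.26, adjusted p = 0.000487), and Foxd1, Mkx, Tcf21, Alx1 and Pax9 were among the others.

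TGF-β signalling is known to hold cells in the mesenchymal state. Of 52 tested members of TGF-β and BMP signalling 15 gained the mark (28.8%, against 5.66% of all windows). None lost it at this threshold. The median was 0.30, against 0.00 over all windows and 0.19 over the genes whose expression was tested and not called. Of the ligands, Tgfb1 had 8.06 and 9.59 normalised reads in MEFs and 47.8 and 52.2 in pre-iPSCs (2.47 ± 0.36, adjusted p = 2.21e-06), Tgfb3 had 9.21 and 10.5 against 41.1 and 41.5 (2.04 ± 0.35, adjusted p = 4.44e-05), and Inhba, the subunit of activin A, 5.75 and 16.3 against 36.4 and 54.3 (1.96 ± 0.36, adjusted p = 0.000147). Among receptors Tgfbr1 and Acvr1, among extracellular inhibitors Fst, Fstl3 and Grem1, and among targets Smad6, Smad7, Id2, Id3 and Tgfbi gained it.

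Genes outside these lists were among the largest gains. Sertad4 rose 7.22-fold, from 8.06 and 9.59 normalised reads to 48.8 and 82.0, Palm2 6.74-fold, from 5.75 and 14.4 to 74.6 and 67.1, and Aebp1, a secreted matrix-bound carboxypeptidase-like protein, 6.07-fold, from 6.91 and 14.4 to 66.0 and 68.2 (adjusted p = 7.44e-08, 3.55e-08 and 1.32e-07). Synpo, an actin-associated protein, Pcdh7, Synj2, Isg20 and 6230427J02Rik make up the rest of the 12 with Col5a1, Gpr176, Tgfb1 and Klf4. The window of 1 of the 12, Synpo, held only 2.30 reads in MEF replicate 1.

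**Figure D3:**
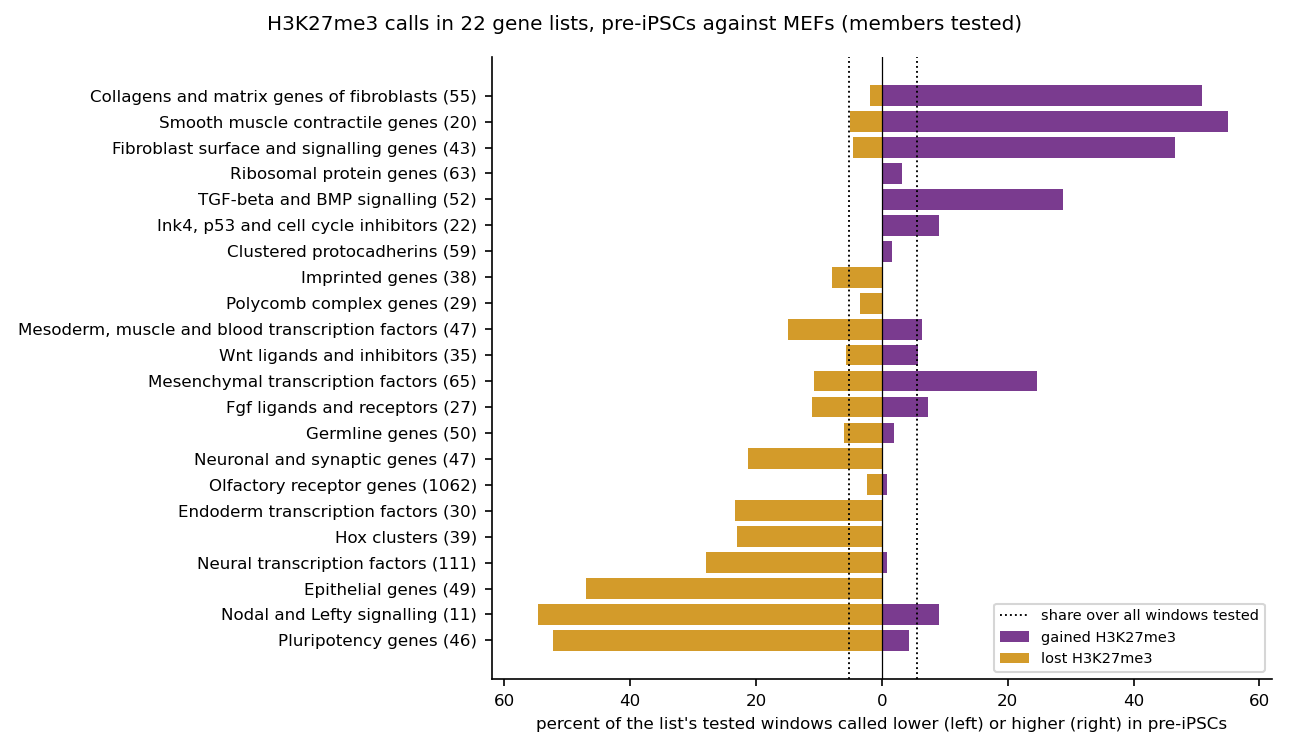
Percent of the tested windows of 22 gene lists (number tested in brackets) that gained (right) or lost (left) H3K27me3 in pre-iPSCs, with the shares over all tested windows as dotted lines. Fibroblast lists reach 46.5% to 55% on the right, and pluripotency, Nodal and epithelial lists 46.9% to 54.5% on the left.

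Genes of the pluripotent state lost the mark, among them some that pre-iPSCs hardly expressed. Of 46 tested pluripotency genes 24 lost H3K27me3 (52.2%, against 5.19% of all windows) and 2 gained it, with a median log2 change of −0.78. Of 11 members of the Nodal pathway, which patterns the early embryo, 6 lost it and 1 gained it (median −0.71). In MEFs the pluripotency list had medians of 51.8 and 54.7 normalised reads and the Nodal list 71.4 and 55.6. Over all windows these were 24.2 and 24.0, and losses were not compared with those of windows of a like level in MEFs. Tdgf1, the Nodal coreceptor Cripto, had 82.9 and 55.6 normalised reads in MEFs and 11.5 and 6.39 in pre-iPSCs (−2.90 ± 0.34, adjusted p = 3.03e-08). The ligand Nodal had 92.1 and 91.1 against 19.14 and 28.8 (−1.94 ± 0.27, adjusted p = 7.00e-07), and the related ligand Gdf3 69.1 and 49.9 against 24.9 and 18.1 (−1.44 ± 0.30, adjusted p = 0.000574). The inhibitors Lefty1 and Lefty2 and the transcription factor Foxh1 made up the other losses, and Gdf1 was the gain (adjusted p = 0.0138).

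Sall4, a zinc finger factor of the core network, had 89.8 and 76.7 normalised reads in MEFs and 25.8 and 18.1 in pre-iPSCs (−1.90 ± 0.27, adjusted p = 2.23e-06). The RNA-binding protein gene L1td1 had 50.6 and 50.8 against 14.4 and 7.46 (−2.18 ± 0.33, adjusted p = 6.06e-06), and Fgf4, the growth factor of the inner cell mass, 99.0 and 79.6 against 29.7 and 25.6 (−1.68 ± 0.26, adjusted p = 6.53e-06). In each of the 3 both pre-iPSC values lay below both MEF values, as in 996 of the 997 lost windows. Genes with little RNA in pre-iPSCs were among the losses. Nanog went from 48.3 and 55.6 to 29.7 and 25.6 (−0.91 ± 0.28, adjusted p = 0.0246). Its FPKM were 0 and 0 in MEFs and 0.519 and 0 in pre-iPSCs. Tcfcp2l1 went from 80.6 and 82.5 to 38.3 and 59.6 (−0.75 ± 0.24, adjusted p = 0.0374). Its FPKM were 0.0206 and 0.0239 in MEFs and 1.35 and 0.939 in pre-iPSCs, a rise that did not pass the limma test (adjusted p = 0.0744). Neither loss was called by DESeq2. Dppa3 had 54.1 and 47.9 against 34.4 and 35.2 (adjusted p = 0.190), the germ cell helicase gene Ddx4 55.2 and 40.3 against 27.7 and 27.7 (adjusted p = 0.0727), Zfp42 24.2 and 26.9 against 18.2 and 20.2 (adjusted p = 0.436), and Trap1a on the X chromosome 19.6 and 30.7 against 16.3 and 18.1 (adjusted p = 0.314), and none of these 4 passed the test.

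Epithelial genes, which are switched on early in reprogramming, lost the mark almost as often. Of 49 tested members 23 lost it (46.9%, against 5.19% of all windows) and 0 gained it (median −0.66). Itgb4, the integrin of hemidesmosomes, had 80.6 and 72.9 normalised reads in MEFs and 15.3 and 8.52 in pre-iPSCs (−2.65 ± 0.31, adjusted p = 3.03e-08). The desmosomal cadherin gene Dsg2 had 77.1 and 75.8 against 18.2 and 23.4 (−1.88 ± 0.30, adjusted p = 1.04e-05), and Perp, a desmosomal membrane protein, 66.8 and 60.4 against 14.4 and 20.2 (−1.88 ± 0.30, adjusted p = 1.10e-05). The splicing regulators Esrp1 and Esrp2, the grainyhead factors Grhl1, Grhl2 and Grhl3, the claudins Cldn3, Cldn4 and Cldn6, Krt8 and Cdh1 lost it as well. Cdh1, the epithelial cadherin, had 85.2 and 79.6 reads in MEFs, and 35.4 and 53.3 in pre-iPSCs (−0.90 ± 0.24, adjusted p = 0.0100).

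Developmental regulators of other lineages lost the mark in part. Of 111 tested neural transcription factors 31 lost it (27.9%, against 5.19% of all windows) and 1, Ebf1, gained it (median −0.49). The list had medians of 88.6 and 76.7 normalised reads in MEFs, against 24.2 and 24.0 over all windows. Losses were not compared with those of windows of a like level in MEFs. Zic5 and Zic2, neighbouring zinc finger genes on chromosome 14 whose starts lie more than 5000 bp apart, had 100.1 and 71.9 and 89.8 and 86.3 normalised reads in MEFs against 10.5 and 10.7 and 16.3 and 13.8 in pre-iPSCs (−3.0 ± 0.32 and −2.53 ± 0.29, adjusted p = 8.59e-09 and 2.79e-08). Tcfap2a, which encodes the ectoderm and neural crest factor AP-2α, had 61 and 65.2 against 6.70 and 8.52, the largest loss by the rule for named genes (−3.04 ± 0.35, adjusted p = 2.79e-08). Pax6, the factor of eye and forebrain, had 112 and 89.2 against 18.2 and 22.4 (−2.30 ± 0.27, adjusted p = 3.03e-08). These windows lay well above the median of all windows in MEFs and fell below the median of all windows in pre-iPSCs. Sox1, Olig3, Tlx3 and Dlx1 also lost it.

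Of 39 Hox genes, the classical targets of Polycomb, 9 lost the mark (23.1%, against 5.19% of all windows). None gained it and 30 did not pass the test (median −0.47, range −1.34 to 0.33). DESeq2 called 2 of the losses. Hoxa10 had 80.6 and 69.0 normalised reads in MEFs and 24.9 and 34.1 in pre-iPSCs (−1.34 ± 0.26, adjusted p = 0.000223), and Hoxa9 73.7 and 46.0 against 22 and 25.6 (−1.31 ± 0.29, adjusted p = 0.00120). Hoxa2, Hoxa6, Hoxa13, Hoxb13, Hoxc12, Hoxd9 and Hoxd10 were the others. Windows of neighbouring Hox genes overlap in 11 of the 39, so these genes are not separate measurements. Of 30 endoderm factors 7 lost the mark (23.3%) and 0 gained it (median −0.42). Of 47 factors of mesoderm, muscle and blood 7 lost it (14.9%) and 3 gained it (6.38%, against 5.66% of all windows). Their median was −0.13, and DESeq2 called 0 and 1. Of 47 neuronal and synaptic genes 10 lost it (21.3%) and 0 gained it (median −0.26). In MEFs the Hox, endoderm and neuronal lists had medians of 59.8 and 57.5, 85.2 and 73.8, and 66.8 and 65.2 normalised reads. Over all windows these were 24.2 and 24.0, and losses were not compared at a like level. DESeq2 called 2 of the endoderm and 2 of the neuronal losses, and with 1 of the 4 libraries left out there were 2 to 5 and 2 to 7. Scaling to the reads in calls left 5 and 4. Stmn2, a tubulin-binding protein of neurons, fell from 66.8 and 47.0 to 16.3 and 11.7 (−1.99 ± 0.32, adjusted p = 1.32e-05).

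Other lists had few changes, to be read against 5.66% of all windows with a gain and 5.19% with a loss. Of 35 Wnt ligands and inhibitors 2 gained the mark, Wnt5a (1.75 ± 0.29, adjusted p = 2.34e-05) and Dkk3, and 2 lost it, Sfrp1 and Dkk1. Of 27 Fgf ligands and receptors 2 gained it, Fgfr2 and Fgf18, and 3 lost it, Fgf4, Fgf15 and Fgf1. Of 22 genes of the Ink4, p53 and cell cycle inhibitor list 2 gained it, Ccnd2, a cyclin, and Gadd45g. Of 50 germline genes 1 gained it (Tdrd7) and 3 lost it (Asz1, Kit and Piwil4), and of 38 imprinted genes 3 lost it (Ppp1r9a, Calcr and Zdbf2). Of 29 Polycomb genes themselves 1 lost it, Phf19, a Polycomb-like partner of the complex (−1.06, adjusted p = 0.00624). DESeq2 called 0 of these germline, imprinted and Polycomb changes. Of 63 ribosomal protein genes 2 gained it, Rps10 and Rpl12, and the median of the list was 0.40, while none of the 63 passed the test for expression. Rpl12 had 6.91 and 8.63 reads in MEFs and 22 and 17.0 in pre-iPSCs, all at or below the median of all windows. Of 1062 olfactory receptor windows 8 gained and 25 lost it (median −0.29), of which DESeq2 called 0 and 2. With an offset for GC content 10 gained and 5 lost it (median 0.02). Of 59 clustered protocadherins 1 gained it, Pcdhgc5.

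The counts of the lists changed with the method. DESeq2 left 16 of the 28 gains of matrix genes, 4 of 11 of contractile genes, 8 of 20 of surface genes, 6 of 16 of mesenchymal factors and 8 of 15 of TGF-β genes, and 13 of the 24 losses of pluripotency genes, 10 of 23 of epithelial genes, 17 of 31 of neural factors, 3 of 6 of Nodal genes and 2 of 9 of Hox genes. When 1 of the 4 libraries was left out, the gains came to 19 to 29, 5 to 9, 10 to 15, 9 to 12 and 7 to 15 for the same 5 lists, each lowest without MEF replicate 1 (matrix genes also without pre-iPSC replicate 2), and the losses to 14 to 21, 12 to 20, 19 to 32, 3 to 4 and 2 to 8 for the other 5. The lowest were those without pre-iPSC replicate 1 for pluripotency, epithelial and neural genes and without MEF replicate 1 for neural, Nodal and Hox genes, with the same count for Nodal genes without pre-iPSC replicate 2.

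The genes of the 4 reprogramming factors need a caution of their own, since pre-iPSCs carry further copies of their coding sequence. Klf4 had 6.91 and 7.67 normalised reads in MEFs and 39.2 and 72.4 in pre-iPSCs (2.90 ± 0.39, adjusted p = 4.18e-07), and Myc 17.3 and 8.63 against 36.4 and 50.1 (1.76 ± 0.35, adjusted p = 0.000400), while their FPKM rose from 25.1 and 37.6 to 674 and 782 and from 57.8 and 36.3 to 337 and 816. In the window of Klf4 the H3K27me3 reads with a dyad in coding sequence rose from 2 and 1 to 14 and 25, and those elsewhere from 4 and 7 to 27 and 43. H3 in the window of Klf4 rose too, from 86.7 and 97.2 to 635 and 181 normalised reads. H3 reads with a dyad in coding sequence rose from 12 and 21 to 769 and 65. Those elsewhere were 46 and 57 in MEFs and 324 and 59 in pre-iPSCs. The gain of H3K27me3 was thus seen in both parts, but reads and RNA from the retroviral copies cannot be told apart from those of the gene. Sox2 had 62.1 and 61.4 normalised H3K27me3 reads against 49.8 and 53.3 (adjusted p = 0.534). Pou5f1 could not be compared: its window held 442 normalised reads in MEF replicate 1 and 78.6 in MEF replicate 2, against 299 and 316 in pre-iPSCs, and H3 in the same window 2889 and 253 in MEFs against 4890 and 2883. The Oct4-GFP transgene holds sequence of this locus, and its part in these reads was not tested. The change of Pou5f1 was 0.27 ± 0.27 in all libraries, 1.96 without MEF replicate 1, −0.51 without MEF replicate 2 and −3.28 with an H3 offset.

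Expression changed in the opposite direction to the mark at a large part of the called windows. Of 950 gains whose genes had at least 0.5 FPKM on average, 400 (42.1%) were expressed at a lower and 4 (0.421%) at a higher level in pre-iPSCs, and of 578 such losses 320 (55.4%) were higher and 4 (0.692%) lower (limma on log2(FPKM + 1), adjusted p below 0.05 and at least 2-fold). Of all 12401 genes tested 7.39% were higher and 9% lower, and of the 12147 windows tested for both 7.42% and 9.15%. Read the other way, 400 of 1111 genes of lower expression gained the mark (36.0%) and 4 lost it, 320 of 901 genes of higher expression lost it (35.5%) and 4 gained it, and of 10135 genes without a call 546 gained (5.39%) and 254 lost it (2.51%). Of the 997 losses 419 (42.0%) had too little RNA to be tested, against 12.7% of the gains and 36.8% of all windows.

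Most fibroblast genes that gained the mark were transcribed at a lower level. This held for 26 of the 28 matrix genes that gained it, for 11 of 11 contractile genes, 14 of 20 surface genes, 11 of 16 mesenchymal factors and 9 of 15 TGF-β genes. Expression was lower in large parts of these lists with or without a gain: in 40 of 54 matrix genes tested for expression, 17 of 18 contractile genes, 22 of 40 surface genes, 27 of 53 mesenchymal factors and 16 of 43 TGF-β genes, against 9.15% of all windows. Col1a1 fell from 2144 and 1614 FPKM to 93.7 and 27.7 (−5.16 ± 0.51 on the log2(FPKM + 1) scale, adjusted p = 0.00158) and Tgfb1 from 66.4 and 26.4 to 13.6 and 4.42 (−2.27 ± 0.47, adjusted p = 0.0176). Of the losses, 15 of 24 pluripotency genes, 17 of 22 epithelial genes and 12 of 18 neural factors with measurable RNA were higher in pre-iPSCs, and 1 of 6 Nodal genes. In the whole lists expression was higher in 21 of 46, 25 of 42, 13 of 33 and 1 of 9 genes, against 7.42% of all windows. Tdgf1 rose from 0 and 0.0833 to 228 and 333 FPKM (8.05 ± 0.36, adjusted p = 0.000275), Itgb4 from 0.273 and 0.622 to 31.7 and 54.4 (4.89 ± 0.39, adjusted p = 0.000955) and Zic2 from 0.944 and 0.417 to 25.3 and 13.5 (3.56 ± 0.45, adjusted p = 0.00332). Nodal had 0 FPKM in MEFs and 10.2 and 0.354 in pre-iPSCs and did not pass the test. The RNA and H3K27me3 libraries are separate samples. Of the 9 Hox genes that lost the mark 7 had measurable RNA, none was higher and 1, Hoxd10, was lower.

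**Figure D4:**
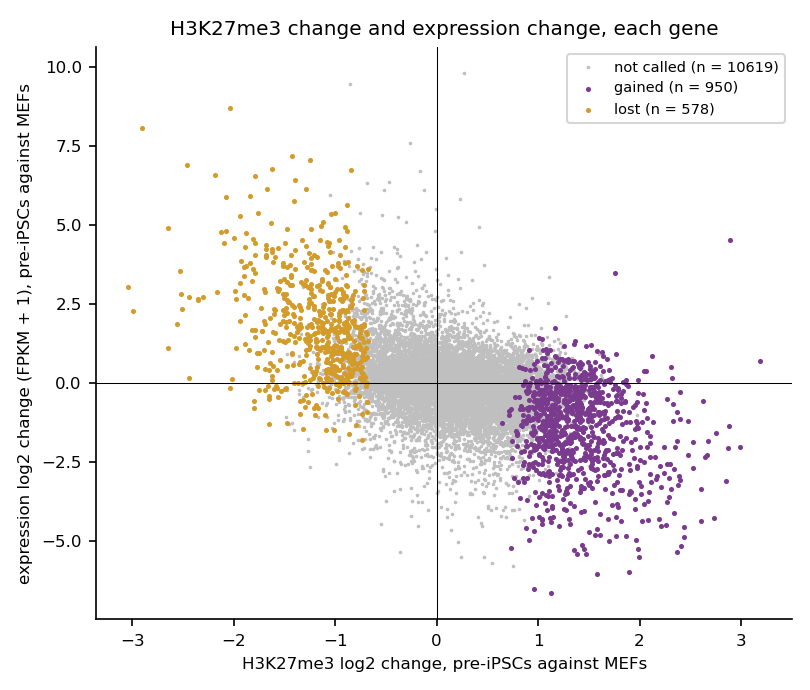
Log2 change of H3K27me3 (x axis) against log2 change of expression on the FPKM + 1 scale (y axis), pre-iPSCs against MEFs, 1 point for each gene tested for both, with the 950 gains and 578 losses coloured. Gains lie mostly in the lower right and losses in the upper left, and the 2 gains with the highest expression change are Klf4 and Myc.

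The exceptions were few and can be named, chosen here after their values were seen. The 4 genes that gained the mark and rose in expression were Klf4, Myc, Gdpd3 and Klk1b9, of which Gdpd3 had 9.21 and 15.3 normalised reads in MEFs and 29.7 and 26.6 in pre-iPSCs and 0.428 and 0.165 against 4.32 and 2.47 FPKM. The 4 that lost it and fell were Alx1, Hoxd10, Nell2 and Magt1. Alx1, a homeobox factor of the facial skeleton, had 74.8 and 67.1 reads in MEFs and 39.2 and 45.8 in pre-iPSCs, with 2.36 and 3.52 against 0.0984 and 0.146 FPKM. In bulk samples fewer cells that carry the mark and less mark per cell cannot be told apart.

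H3K4me3 in the same windows moved against H3K27me3 at a part of the called windows. Of 993 lost windows tested for both marks 237 (23.9%) had more H3K4me3 in pre-iPSCs and 6 (0.604%) less, and of 1088 gained windows 188 (17.3%) had less and 37 (3.40%) more. Of all 19288 windows tested for H3K4me3 6.73% had more and 3.38% less. At Tdgf1 the H3K4me3 reads rose from 27.8 and 25.4 to 99.98 and 97.3 (1.88, adjusted p = 4.60e-07), at Fgf4 from 33.7 and 38.6 to 107 and 121 (1.66, adjusted p = 1.13e-06) and at Itgb4 from 41.3 and 27.3 to 92.8 and 104 (1.5, adjusted p = 1.38e-05). At Col3a1 they fell from 96.1 and 101 to 34.0 and 30.3 (−1.61, adjusted p = 9.93e-06), and at Tnc from 171 and 94.1 to 48.4 and 52.9 (−1.40, adjusted p = 5.11e-05). Tgfb1 gained H3K27me3 with 107 and 106 H3K4me3 reads in MEFs and 108 and 96.2 in pre-iPSCs (adjusted p = 0.870), and Pax6 lost it with 79.2 and 85.6 against 89.7 and 88.6 (adjusted p = 0.742). The H3K4me3 counts rest more than those of H3K27me3 on single libraries: without MEF replicate 1 there were 224 windows with more and 72 with less, against 1298 and 651, and DESeq2 called 198 and 35.

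The nucleosomes themselves were measured with H3. No window was called for H3 by edgeR (303 of 19741 had an unadjusted p below 0.05) or by DESeq2 (360 had one). The H3 replicates differed, also in iPSCs, where gained windows had medians of 237 and 190 normalised reads. This widens the spread used by the test, so the lack of calls does not show that H3 was unchanged. Pre-iPSC replicate 1 of H3 stood apart: without pre-iPSC replicate 2, so that it was the only pre-iPSC library, 4043 windows were called higher and 4545 lower. In windows that gained H3K27me3 the median was 161 and 155 normalised H3 reads in MEFs and 294 and 180 in pre-iPSCs, and in windows that lost it 200.3 and 213 against 212 and 172, with 176 to 179 over all windows. H3 was thus higher at gained windows in both pre-iPSC libraries, and at lost windows the libraries overlapped. With H3 of replicate 2 as an offset 776 gains and 625 losses were called, of which 577 and 426 were the same windows. Under the offset 20 matrix, 9 contractile, 10 surface and 10 TGF-β genes and 11 mesenchymal factors gained the mark, and 12 pluripotency, 11 epithelial, 18 neural, 4 Nodal and 5 Hox genes lost it. The median of the neural factors then was −0.17. H3K9me3 was measured in 1 library of each cell type, with no test, and had medians of 15.1 in MEFs and 24.2 in pre-iPSCs in gained windows, 30.3 and 23.2 in lost ones, and 19.2 and 22.3 over all.

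Promoters rich in CpG (HCG) made up 60.0% of the gains and 40.1% of the losses, against 50.9% of all tested windows. CpG-poor promoters (LCG) made up 22.2% and 32.0%, against 31.1%, and those in between 17.7% and 27.9%, against 18.0%. By class 6.68% of the HCG windows gained and 4.09% lost the mark, 5.58% and 8.04% of the intermediate ones and 4.05% and 5.33% of the LCG ones. The 250 bases before the start held a median of 15 CpGs in gains, 9 in losses and 11 over all. With an offset for GC content there were 969 gains and 1110 losses.

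Windows on the X chromosome mostly held less of the mark in pre-iPSCs. Of 658 tested windows 113 (17.2%) lost it and 1, that of the synapsin gene Syn1, gained it, and the median log2 change was −0.72, while the medians of the autosomes lay between −0.09 and 0.16. Libraries of other marks and of H3 showed lower X levels as well: X took 3.31% and 3.56% of the H3K27me3 reads in MEFs and 2.25% and 2.20% in pre-iPSCs, and the median log2 ratio of X windows was −0.67 for H3K27me3, −0.72 for H3, −0.73 for H3K9me3 and −0.28 for H3K4me3. Y took 0.0517% and 0.0346% of the H3K27me3 reads in MEFs and 0.0914% and 0.0710% in pre-iPSCs. The labels do not give the sex of the embryos or clones, and the number of X copies and the mark cannot be told apart. Of the 69 X losses with measurable RNA 17 were higher and 1 was lower in expression, and of all 386 such X windows 26 were higher and 49 lower. Without X and Y 1024 gains and 941 losses were called.

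**Figure D5:**
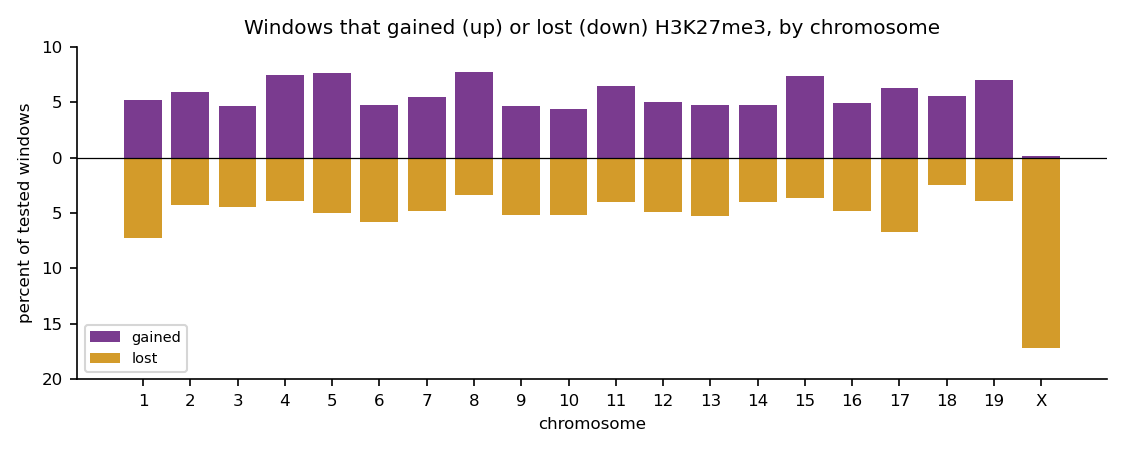
Percent of the tested windows of each chromosome that gained (up) or lost (down) H3K27me3 in pre-iPSCs. Gains run from 4.40% to 7.73% and losses from 2.47% to 7.25% on the autosomes, against 0.152% and 17.2% on X.

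The iPSC libraries, which entered the filter, the scaling and the estimate of the spread (18610 windows were tested without them), show where these windows stood in fully reprogrammed cells. This is a description, since the windows were chosen by their level in pre-iPSCs and MEFs. Of 1087 autosomal gains 998 (91.8%) had an iPSC level nearer to that of pre-iPSCs than of MEFs, and of 884 autosomal losses 657 (74.3%). The share over all windows was not counted, so these shares cannot be called particular to the called windows. Over all tested windows Pearson's r of log2 reads was 0.764 to 0.821 between iPSC and pre-iPSC libraries. Between iPSC and MEF libraries it was 0.605 to 0.733. Zic2 (21.8 and 13.9 normalised reads in iPSCs), Tdgf1 (12.7 and 9.96) and Sall4 (17.3 and 12.9) stayed low. Others were high again: Itgb4 had 57.3 and 45.8 reads in iPSCs against 15.3 and 8.52 in pre-iPSCs, Tcfap2a 54.5 and 41.8 against 6.70 and 8.52, Nccrp1 45.4 and 57.8 against 13.4 and 16.0, Hoxa10 70.0 and 73.7 against 24.9 and 34.1, and Hoxa9 62.7 and 68.7 against 22 and 25.6. For Itgb4, Tcfap2a and Nccrp1 the RNA went the opposite way, with 31.7 and 54.4, 19.5 and 11.6, and 121 and 114 FPKM in pre-iPSCs and 1.47 and 1.26, 0.516 and 0.523, and 0.595 and 0.184 FPKM in iPSCs. These genes were picked for their iPSC levels, and iPSCs were not tested against pre-iPSCs here. Of the 884 autosomal losses 227 had an iPSC level nearer to that of MEFs.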

How the data were processed

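H3K27me3 MNase ChIP-seq libraries of MEFs and pre-iPSCs (2 each) were compared. Per the submitters' processing notes and the study's methods, alignment was to mm9 by Bowtie 1.0.1 with unique hits kept and repeats of a read capped, and GeneTrack called nucleosomes from reads shifted towards the dyad. The authors deposited counts of reads per called nucleosome. The deposited FPKM come from TopHat2 2.0.4 and Cufflinks 2.0.2, in 2 tables made separately.

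Dyads (start plus 73 bp) within 2500 bp of the TSS were counted. The test was the quasi-likelihood test of edgeR 4.0.16 after filterByExpr and TMM, fitted to all 6 H3K27me3 libraries, and likewise for H3K4me3 and H3, with DESeq2 1.42.0 as an alternative. Errors are standard errors. With a library left out, the remaining 1 of that cell type was assumed to vary like the other groups. Expression was tested with limma 3.58.1 (trend, pseudocount 1, mean of at least 0.5 FPKM, table as a term), with a fold change on the log2(FPKM + 1) scale. HCG promoters hold a 500-bp window with a CpG ratio of at least 0.75 and 55% GC, and LCG promoters none above 0.48.

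The tests were checked on simulated counts. Members and lists were chosen with earlier results of these data known. Named genes were the 12 gains and 12 losses of largest change (autosomal, at least 40 reads, 1 gene within 5000 bp). In these both pre-iPSC libraries had to lie above, or for losses below, both MEF libraries. Also named were the 3 smallest p of each list and direction, genes named with values in the study and its factors. Others, chosen after their values were seen, serve as examples. Block and DESeq2 fits of H3K4me3 and H3, and RLE for H3, were added after seeing the data. R 4.3.3, Python 3.11.15, numpy 2.4.6 and pandas 2.3.3 were used. A few genes are not reported here.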

Additional observations from a re-analysis of the deposited data

How the results depend on the processing

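Losses were 647 when scaled to reads in calls, 662 when scaled to the unique reads given by the study, 582 with calls of at least 2 reads, 625 with an H3 offset and 535 with a 2-fold minimum. With windows of 1000 bp either side there were 521 gains and 322 losses, and with DESeq2 252 and 216, or 198 and 35 for H3K4me3. At 30 reads the fitted dispersion of DESeq2 was 0.0738 and that of edgeR 0.0126. The remaining alternatives kept both counts within 1.5-fold. Leaving out 1 library gave 502 to 1090 gains and 365 to 986 losses, 224 to 1178 higher and 72 to 567 lower H3K4me3 windows, 0 to 4043 and 0 to 4545 for H3, and 607 to 1240 higher and 465 to 1672 lower genes. Expression without a filter gave 586 and 658. Marked windows lost were 571 at 0.75 RPKM and 3 at 1.5, and gained 442 and 2. Pou5f1, not called with all libraries, was called a loss with an H3 offset (−3.28) and without MEF replicate 2 (−0.51) and a gain without MEF replicate 1 (1.96). Trap1a changed sign with an H3 offset (0.13). Of the values of named genes under alternatives 1834 kept direction and call, 248 lost the call and 3 reached it with the same direction. Another 3 reversed: Pou5f1 with an H3 offset and without MEF replicate 2, and Trap1a with an H3 offset. The causes were not tested.

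The labels give no replicate numbers, and nothing says that libraries of the same number belong together: deviations of replicate 1 correlated at −0.04 between MEFs and pre-iPSCs, −0.06 between MEFs and iPSCs and 0.19 between pre-iPSCs and iPSCs. With the replicate block there were 1079 gains and 941 losses (H3K4me3 1148 and 579), and expression without it gave 905 and 1092. Depth of about 20 reads a window limits single genes.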

Other observations

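One lost window did not separate the cell types. Cwc22, a splicing factor gene chosen after its values were seen, had 16.1 and 113 normalised H3K27me3 reads in MEFs and 24.9 and 16.0 in pre-iPSCs, and its H3K4me3 reads were 75 and 299 against 61.8 and 56.2. H3 reads were 154 and 745 in MEFs and 73.2 and 190.0 in pre-iPSCs, so H3 was high in MEF replicate 2 as well as both marks. The RNA of Cwc22 was 12.1 and 5.56 FPKM in MEFs and 11.9 and 11.4 in pre-iPSCs.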
